A study of Mus musculus with 20 samples.

Results

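Tubb4a, a beta-tubulin gene best known from the brain, was examined here together with 9 other tubulin genes in the livers and kidneys of mice given a reprogramming cocktail or its solvent. The 10 genes were 7 beta-tubulins (Tubb4a, Tubb2a, Tubb2b, Tubb3, Tubb4b, Tubb5 and Tubb6) and 3 alpha-tubulins (Tuba1a, Tuba1b and Tuba1c), found by symbol among the 57010 genes of the count table. Tubb4a was chosen by its liver values, which differed between 7c and vehicle mice, so those liver values are described below without a test. The other 9 were taken as its relatives.

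The animals were male UM-HET3 mice, a genetically heterogeneous stock in which no animals are identical, 12 months old when the infusion began. In the 7c group, subcutaneous osmotic minipumps delivered repsox, tranylcypromine, DZNep, CHIR99021, forskolin and TTNPB at 0.1 mg/kg/day each, with valproate at 1 mg/kg/day, for 28 days. Vehicle mice carried pumps with the same solvent, 50% DMSO and 50% PEG300, and no compound. Liver and kidney RNA was sequenced after enrichment of polyadenylated transcripts, from 6 mice given 7c and 4 given vehicle, which gave 20 libraries. All mice had a pump and solvent, no untreated animals were analysed here, and the effect of a single compound cannot be told apart from that of the mixture. The libraries held 28383359 to 34153084 counts in liver and 27855849 to 64872451 in kidney. The hepatocyte markers Alb, Apoa1, Ttr, Cps1 and Fgb summed to at least 87104 CPM (counts scaled to counts-per-million units) in each liver, and the kidney tubule markers Umod, Slc34a1, Slc12a1, Aqp2 and Kap summed to at least 26627 CPM in each kidney and at most 0.138 CPM in any liver, as the tissue labels state.

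Microtubules are hollow polymers of dimers made of an alpha-tubulin and a beta-tubulin, and they carry vesicle and organelle traffic, shape the cell, and form the mitotic spindle and the cores of cilia. Mammals encode several isotypes of each subunit that differ mainly in their acidic carboxy-terminal tails, where motors and associated proteins bind and where enzymes add or remove residues. Tubb4a and Tubb3 are known as neural isotypes, Tubb4a being abundant in oligodendrocytes and neurons and Tubb3 in neurons. Tubb2a and Tubb2b are also abundant in brain, Tubb4b and Tubb5 are found in most tissues, Tubb6 is a divergent and widely expressed beta-tubulin, and Tuba1a, Tuba1b and Tuba1c are near-identical alpha-tubulins of which Tuba1a is the main form of developing neurons.

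Both ends of the coding sequences are shown, the start for its first 4 codons and the end for the acidic tail. The likeness between the genes also bears on which reads can be assigned to which gene. In bases, the first 4 codons took 6 forms among the 7 beta-tubulins, and no other member shared that of Tubb4a. Between Tubb4a and Tubb4b, 12.3% of aligned bases differed over Tubb4a bases 1201 to 1335, against 17.3% over bases 1 to 150. The sequences were read from the GENCODE vM39 transcripts (GRCm39). The first 30 coding bases follow for the gene singled out, its namesake and an alpha-tubulin, with the first 4 codons in capitals, the stretch whose translation product is recognised when cells with excess free tubulin degrade tubulin mRNA.
Tubb4a: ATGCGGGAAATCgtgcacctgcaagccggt
Tubb4b: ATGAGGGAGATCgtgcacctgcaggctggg
Tuba1b: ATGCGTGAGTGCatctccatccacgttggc

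The last 60 coding bases, stop codon included, encode the acidic tail, and capitals mark codons for glutamate or aspartate. They are shown for Tubb4a and for 5 other genes with high levels in these tissues or large tissue differences.
Tubb4a: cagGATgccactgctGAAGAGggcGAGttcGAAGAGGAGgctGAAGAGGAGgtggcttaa
Tubb4b: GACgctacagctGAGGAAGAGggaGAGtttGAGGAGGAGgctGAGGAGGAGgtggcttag
Tubb2a: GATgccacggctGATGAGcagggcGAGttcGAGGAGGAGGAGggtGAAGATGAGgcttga
Tubb2b: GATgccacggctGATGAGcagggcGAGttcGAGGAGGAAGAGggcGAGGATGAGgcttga
Tubb5: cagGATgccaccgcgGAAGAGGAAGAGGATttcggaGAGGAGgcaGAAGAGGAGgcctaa
Tuba1c: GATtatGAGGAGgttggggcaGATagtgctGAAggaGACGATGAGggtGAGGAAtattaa

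Of the 19 sense codons in each tail, 10 were acidic in Tubb4a and Tuba1c and 11 in Tubb4b, Tubb2a, Tubb2b and Tubb5. Over the whole coding sequence, Tubb4a was 83.2% identical to Tubb4b and at most 84.5% identical to any other member, Tubb2b. Its longest run of identical aligned bases with Tubb4b was 38 bases. Tubb2a and Tubb2b were 96.5% identical, Tuba1a and Tuba1b 98.3%, and Tuba1b and Tuba1c 97.9%.

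These differences set how separable the genes are in reads. No stretch of 100 bases in the Tubb4a transcript occurred in a transcript of another gene, and the same held for Tubb3, Tubb5 and Tubb6. By contrast, 64.9% of such stretches in Tuba1a, 46.1% in Tuba1c, 35.1% in Tuba1b, 29.1% in Tubb4b, 25.1% in Tubb2a and 10.1% in Tubb2b also occurred in another gene, mostly the close paralogs or processed pseudogenes. How reads matching several genes were treated was not stated, so the split between the alpha-tubulins, between Tubb2a and Tubb2b, and between Tubb4b and its pseudogenes is uncertain. On the opposite strand, 80.1% of the Tubb2a stretches lay in transcripts of Bphl, 60.0% of those of Tubb6 in Afg3l2 or a predicted gene, and 38.2% of those of Tubb5 in Flot1, the shares for Tuba1a, Tuba1c and Tuba1b being 48.4%, 24.2% and 22.1%, in several genes such as Gm41396, and the strand setting of the counting was not stated either.

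Tubb4a (ENSMUSG00000062591) lies on chromosome 17 at 57387057 to 57394782 on the minus strand of GRCm39. In liver its counts were 0, 4, 0 and 0 in vehicle replicates 1 to 4 and 12, 18, 32, 4, 10 and 16 in 7c replicates 1 to 6. All 6 7c livers had reads and 3 of the 4 vehicle livers had none, although the vehicle libraries were deeper, with 31670440 to 34153084 counts against 28383359 to 30571119. A count of 0 allows up to 3 counts, which is 0.103 to 0.122 CPM in a vehicle liver, for counting error only.

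In CPM, scaled by TMM over all libraries, Tubb4a was at 0.0364 ± 0.0729 in vehicle livers (SD, n = 4) and 0.646 ± 0.380 in 7c livers (SD, n = 6). The 7c livers spanned 0.171 to 1.30 CPM with a median of 0.615 CPM, and the lowest of them had the same 4 counts as the highest vehicle liver, at 0.146 CPM. The ranges therefore did not overlap in CPM, though 1 library of each group had the same count. Ranges that did not overlap were seen with 7c higher in 0.373% and with 7c lower in 0.293% of the 15012 genes fitted in liver, and this contrast was the one by which Tubb4a was chosen.

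Tubb4a entered the liver fit only through the 7c group. The filter kept a gene where 50% or more of the libraries of a tissue had 10 counts or more, and Tubb4a reached 10 counts in 5 of the 10 livers, all from 7c mice. The fitted log2 fold change was 3.97 (SE 1.01), a value that depends on the prior count because nearly all vehicle counts were 0. Without vehicle replicate 2, the single vehicle liver with reads, it was 7.00 (SE 1.33), and without 7c replicate 1, 2, 3, 5 or 6 the gene no longer passed the filter.

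In kidney, where the comparison was not used to choose it, Tubb4a was detected in all 10 libraries and did not differ between the groups beyond their spread. Its counts were 18, 30, 18 and 10 in vehicle replicates 1 to 4 and 20, 32, 18, 10, 22 and 10 in 7c replicates 1 to 6. The levels were 0.427 ± 0.170 CPM in vehicle kidneys (SD, n = 4) and 0.394 ± 0.234 CPM in 7c kidneys (SD, n = 6), and the ranges overlapped. The log2 fold change was -0.15 (SE 0.49, adjusted p = 0.997, edgeR quasi-likelihood test), with an approximate 95% interval of -1.10 to 0.81, and it was 0.15 without vehicle replicate 2. Vehicle livers were below all vehicle kidneys, as for 28.1% of all genes tested between these groups. The vehicle liver values of Tubb4a had been used to choose it, so this is a description. The 7c livers, at 0.171 to 1.30 CPM, overlapped the 7c kidneys at 0.191 to 0.782 CPM.

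**Figure D1:**
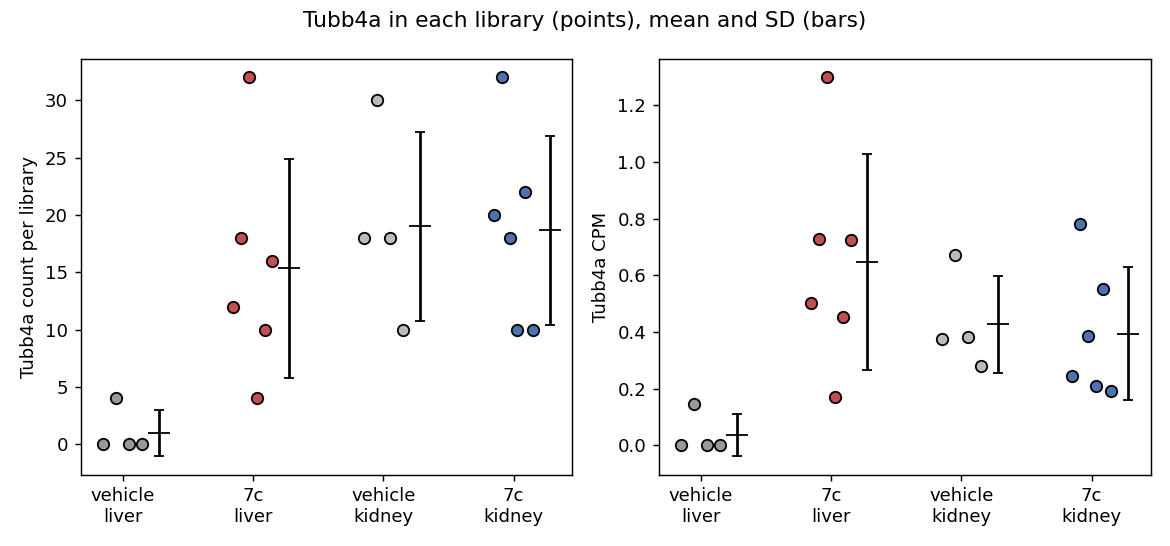
Tubb4a in each library, as counts (left axis panel) and as CPM (right panel), with the mean and SD of each group as bars. The vehicle livers lie at 0 to 4 counts, the 7c livers at 4 to 32, and both kidney groups at 10 to 32.

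All 17 counts of Tubb4a above 0 were even numbers. Over all genes and libraries, 77.9% of the 163527 counts from 1 to 40 were even, and among the other members with counts in all 20 libraries 8 to 14 of the 20 counts were even. Whether both mates of a read pair were counted is not stated in the sources used here. If they were, a count of 0 would allow up to 6 counts, which is 0.207 to 0.245 CPM in a vehicle liver and above the lowest 7c liver at 0.171 CPM. An opposite-strand lncRNA, Gm56907, overlaps Tubb4a and had at most 8 counts in any library.

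Markers of some cell types are given beside Tubb4a, and their part in the result was not tested. They cover neurons, Schwann cells and oligodendrocytes, ciliated and bile duct cells, and skeletal muscle, which stood out in 1 library. Markers of other cell types, such as stellate cells, dividing cells, platelets and fat cells, were measured too and are left out. The 11 neuron markers summed to 10.8 to 23.3 CPM in vehicle livers and 11.7 to 26.1 CPM in 7c livers, most of it Syt1. Of these 11, 2 had a higher mean in 7c livers, and Snap25, Nefl, Uchl1, Elavl3 and Elavl4 had no count in any liver. The 6 Schwann cell and oligodendrocyte markers summed to 2.72 to 5.19 CPM in vehicle and 1.42 to 5.13 CPM in 7c livers, with 1 of the 6 higher in mean in 7c livers and Sox10 at 0 in every liver. Skeletal muscle markers summed to 791 CPM in the liver of 7c replicate 6 and to between 0.420 and 2.19 CPM in the other 9 livers. All 6 muscle markers were higher in mean in 7c livers through this library, whose Tubb4a level, 0.726 CPM, lay inside the range of the other 7c livers. The 5 ciliated cell markers summed to 1.45 to 2.91 CPM in vehicle and 2.18 to 3.49 CPM in 7c livers, and 3 of the 5 were higher in mean in 7c livers. The 5 bile duct markers summed to 42.9 to 71.9 CPM in vehicle and 34.9 to 43.5 CPM in 7c livers. Of the 5, 1 was higher in mean in 7c livers, Krt7, at 1.32 against 1.29 CPM. Epcam, an adhesion protein of bile duct cells, was at 1.75 to 3.83 CPM in vehicle and 0.406 to 1.59 CPM in 7c livers, without overlap. It was singled out after its values were seen. The other markers of this list overlapped, and 0.293% of all genes fitted in liver were lower with 7c without overlap. In bulk tissue, fewer cells of a type and less RNA per cell cannot be told apart.

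The chromosomal neighbours of Tubb4a are given for the genomic context of the gene. Within 100 kb, 20 other genes are annotated, 18 of them in the count table, of which 7 passed the filter in liver and 8 in kidney. The nearest that passed the filter, Dennd1c, a regulator of Rab GTPases 1.53 kb away, was at 5.47 ± 0.919 CPM in vehicle livers (SD, n = 4) and 6.61 ± 0.490 CPM in 7c livers (SD, n = 6). No neighbour passed the threshold in either tissue, where 0.00666% of all genes in liver and 0% in kidney were called. In kidney the 8 log2 fold changes lay between -0.07 for Pspn, a neurotrophic ligand, and 0.22 for Gtf2f1, a general transcription factor subunit, and in liver the 7 lay between -0.10 for Khsrp, an RNA-binding protein, and 0.25 for Dennd1c.

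Tubb3, the other neural isotype, had 0 counts in all 10 livers and all 4 vehicle kidneys. Its counts in 7c kidneys 1 to 6 were 4, 2, 0, 0, 4 and 0, at most 1 above the 3 counts that a count of 0 allows and under the 6 that it would allow if both mates of a pair were counted. It did not pass the filter in either tissue. On CPM, an exact two-sided permutation test over 210 splits gave p = 0.333 for 7c against vehicle kidneys.

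The other 8 tubulins were abundant or at least well counted, and 7c left them without a detectable change in kidney. With 7c, 7 of the 8 were higher and 1 lower, between -0.05 (Tubb2b) and 0.24 (Tuba1b) on the log2 scale with SEs of 0.123 to 0.215. The median was 0.13, against -0.01 over all 17749 genes tested, of which 49% had a log2 fold change above 0. None passed the edgeR quasi-likelihood test, where 0% of all genes were called, and none was called by DESeq2, limma-voom or edgeR's likelihood ratio test, which called 18, 2 and 14 of all genes. No member had ranges that did not overlap, as 0.349% of all genes had with 7c higher and 0.366% with 7c lower. None of the 8 had an unadjusted p under 0.05, the lowest being 0.157 for Tuba1c in the edgeR fit, while 2.61% of all genes had one. The approximate 95% intervals reached no further than 0.66 on the log2 scale, so that changes beyond this size lay outside every interval.

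Tuba1b had the largest SE of the 8 on the log2 scale in kidney, 0.215. It was at 39.5, 73.7, 42.7 and 40.3 CPM in vehicle kidneys 1 to 4 and at 38.0 to 75.8 CPM with a median of 60.2 CPM in 7c kidneys. Vehicle replicate 2 stood apart from the other 3 vehicle kidneys in Tuba1b, and likewise in Tubb5, at 65.7 CPM against 40.2 to 42.0 CPM. Without that library the log2 fold changes were 0.50 (SE 0.18) for Tuba1b, 0.34 (SE 0.13) for Tuba1c and 0.32 (SE 0.13) for Tubb5, each with an adjusted p of 0.476 in the edgeR fit. The direction for Tubb2b and Tubb4a changed sign without it, to 0.02 and 0.15.

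In liver, where values are a description, the same 8 genes lay between -0.09 (Tubb2b) and 0.31 (Tuba1c) on the log2 scale, 5 higher and 3 lower with 7c, with SEs of 0.0975 to 0.549. Their median was 0.14, against 0.00 over all genes, and 50.4% of genes had a value above 0. All 8 had overlapping ranges, and 0.00666% of the 15012 genes fitted, a single gene and none of the 8, were past the threshold.

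**Figure D2:**
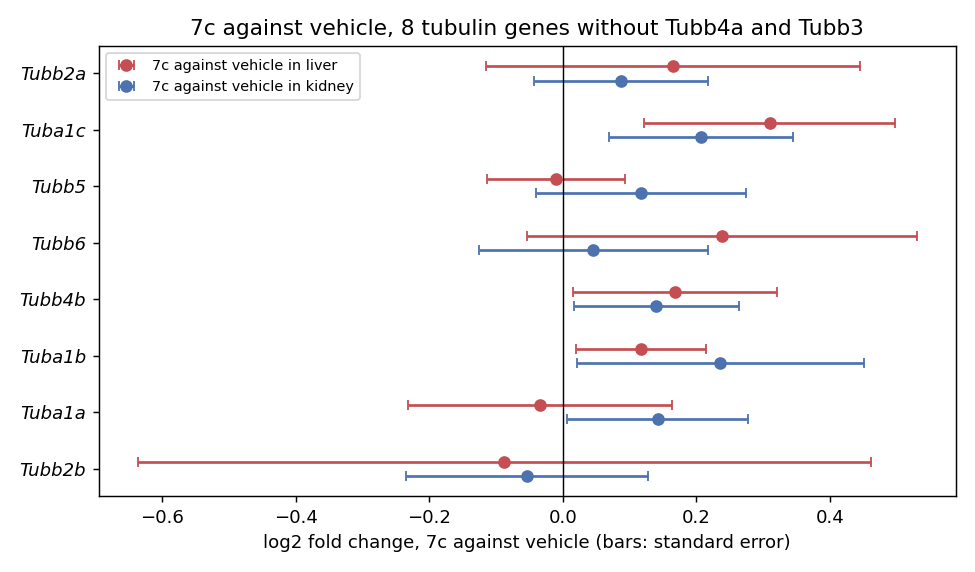
Log2 fold change of 7c against vehicle (horizontal axis) for the 8 tubulin genes other than Tubb4a and Tubb3, in liver and kidney, with bars of 1 standard error. All kidney values lie between -0.05 and 0.24 and all liver values between -0.09 and 0.31.

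To compare genes with each other, CPM was divided by the length of all annotated exons, giving CPM per kilobase. In vehicle livers Tubb4b and Tubb2a were highest, at means of 65.9 and 65.5 CPM per kilobase (n = 4) and ranges of 51.2 to 80.9 and 48.3 to 95.7. They were followed by Tuba1c at 29.7 ± 8.07 and Tubb5 at 26.6 ± 3.50, and then by Tuba1b at 9.27 ± 0.560, in CPM per kilobase. Tuba1a at 3.52 ± 0.367 and Tubb6 at 2.60 ± 1.12 came next, before Tubb2b at 0.246 ± 0.0946, Tubb4a at 0.0163 ± 0.0326 and Tubb3 at 0. Within this order the ranges overlapped between Tubb4b and Tubb2a, between Tuba1c and Tubb5, between Tuba1a and Tubb6 and between Tubb4a and Tubb3, and every other pair of neighbours was separated.

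In 7c livers the order of the first 7 genes was the same, with Tubb4b at 75.5 ± 12.6, Tubb2a at 75.0 ± 29.7 and Tuba1c at 37.6 ± 8.68 CPM per kilobase (SD, n = 6). Tubb4a, at 0.289 ± 0.170 CPM per kilobase, stood just above Tubb2b at 0.238 ± 0.197, with overlapping ranges. Tubb4a was thus a minor isotype in 7c livers too, far below Tubb4b on the per kilobase scale.

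In kidney Tubb4b stood alone at the top, at 80.5 ± 9.39 CPM per kilobase in vehicle (SD, n = 4) and 89.5 ± 12.0 in 7c mice (SD, n = 6). Tubb5 at 14.1 ± 3.69, Tuba1b at 14.1 ± 4.72, Tuba1c at 13.7 ± 2.50 and Tubb2a at 10.6 ± 1.94 CPM per kilobase followed in vehicle kidneys, each overlapping the next. Below them came Tuba1a at 6.05 ± 0.769, Tubb6 at 2.59 ± 0.509, Tubb2b at 1.40 ± 0.188 and Tubb4a at 0.191 ± 0.0760 CPM per kilobase, with no overlap between neighbours. In 7c kidneys Tuba1b, Tuba1c and Tubb5 changed places inside that overlapping group, and the order below was the same.

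**Figure D3:**
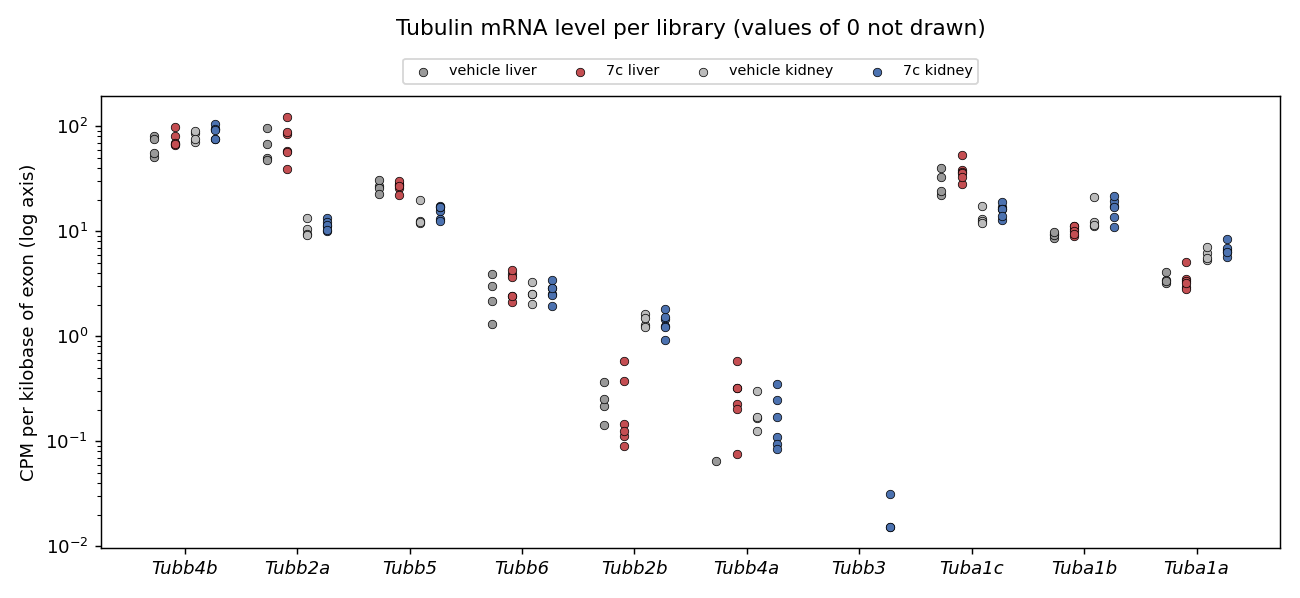
CPM per kilobase of exon (log axis) of each tubulin gene in each library, by group, with values of 0 not drawn. Tubb2a and Tuba1c lie higher in liver, Tubb2b and Tuba1a higher in kidney, and Tubb4a near the bottom, with a single vehicle liver above 0.

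The isotype makeup of the beta-tubulin transcripts differed between the organs. As a share of the summed CPM per kilobase of the 7 beta-tubulins, Tubb4b held 41.0% ± 3.36 in vehicle livers and 73.7% ± 2.60 in vehicle kidneys (SD, n = 4 each). Tubb2a held 40.1% ± 5.16 in vehicle livers and 9.68% ± 0.582 in vehicle kidneys, and Tubb5 17.1% ± 4.50 and 12.8% ± 1.88. The ranges of the tissues did not overlap for Tubb4b and Tubb2a and overlapped for Tubb5. In 7c mice the liver shares were 42.5% ± 5.15 for Tubb4b, 40.2% ± 7.20 for Tubb2a and 15.3% ± 2.76 for Tubb5, and the kidney shares 74.2% ± 1.26, 9.48% ± 0.664 and 12.8% ± 0.934 (SD, n = 6). Tubb4a held 0.0122% ± 0.0244 in vehicle livers, 0.165% ± 0.0993 in 7c livers, 0.171% ± 0.0466 in vehicle kidneys and 0.143% ± 0.0734 in 7c kidneys.

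Among the 3 alpha-tubulins, Tuba1c led in liver and shared the lead with Tuba1b in kidney. Tuba1c held 69.1% ± 5.87 of their summed CPM per kilobase in vehicle livers, and in vehicle kidneys Tuba1c held 40.8% and Tuba1b 40.9%. The summed CPM per kilobase of the 7 beta-tubulins was 161 ± 34.9 in vehicle livers and 109 ± 14.7 in vehicle kidneys, and that of the 3 alpha-tubulins 42.4 ± 7.95 and 33.9 ± 7.36 (SD, n = 4). The alpha sum leaves out Tuba4a, an alpha-tubulin outside the 10 genes with 236 ± 42.5 CPM in vehicle livers and 156 ± 35.9 CPM in vehicle kidneys (SD, n = 4).

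**Figure D4:**
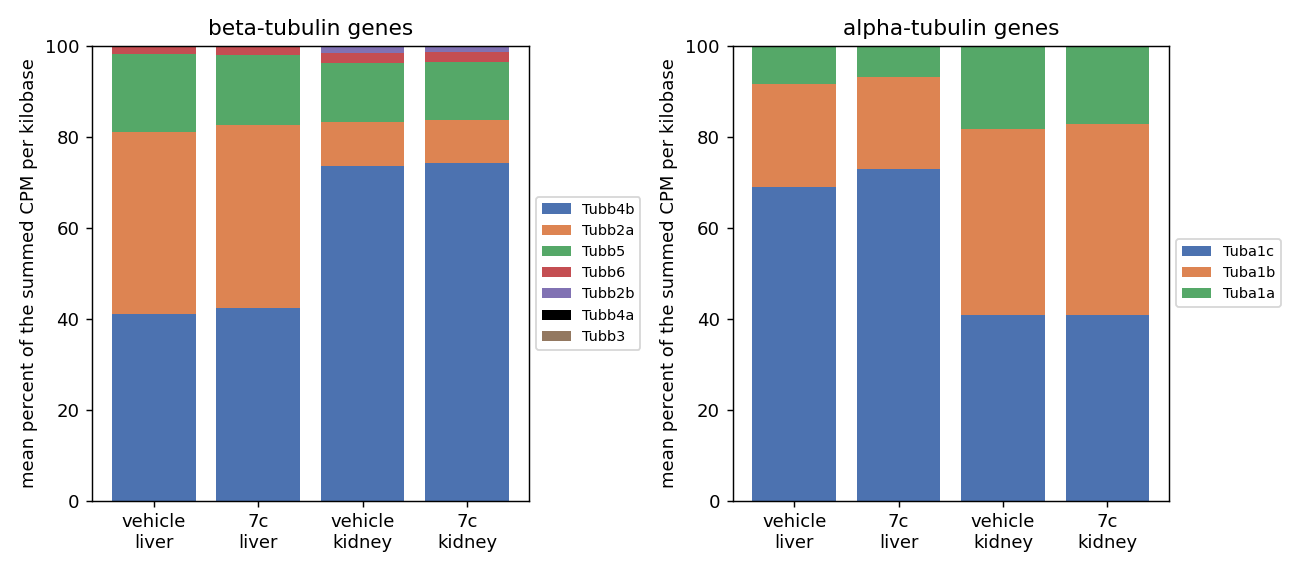
Mean percent of the summed CPM per kilobase held by each beta-tubulin (left) and alpha-tubulin (right) in the 4 groups. Tubb2a fills 40.1% of the beta bar in vehicle liver and 9.68% in vehicle kidney, and Tubb4a is too small to see.

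The tissue differences of the single genes were tested for the 8 members other than Tubb4a, whose vehicle liver values had been used to choose it, and Tubb3. In vehicle mice 6 of the 8 passed the edgeR quasi-likelihood test, 3 higher and 3 lower in liver. Over all 17245 genes tested, 25.7% were called higher and 27.7% lower, 53.4% in all, so the members' share of calls is to be read against a background in which most genes differed.

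Tubb2a showed the largest difference in favour of liver. It was at 160, 118, 225 and 113 CPM in vehicle livers 1 to 4 and at 24.5, 31.6, 22.4 and 21.6 CPM in vehicle kidneys 1 to 4. Every liver was above every kidney, a pattern of 25.1% of all genes tested, and the log2 fold change was 2.62 (SE 0.24, adjusted p = 3.76e-06). That is 6.16-fold higher in liver. Bphl, the opposite-strand gene over most of Tubb2a, was at 242 to 263 CPM in vehicle livers and 245 to 417 CPM in vehicle kidneys, ranges that overlapped.

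Tubb2b, the near-identical gene beside Tubb2a on chromosome 13, was 5.69-fold lower in liver. It was at 1.35, 0.875, 2.28 and 1.56 CPM in vehicle livers 1 to 4 and at 7.88, 10.01, 9.22 and 7.52 CPM in vehicle kidneys 1 to 4. No vehicle liver reached the lowest kidney, as for 28.1% of all genes tested, and the log2 fold change was -2.51 (SE 0.31, adjusted p = 3.98e-05). Both genes lie on the minus strand, Tubb2a at 34257549 to 34261998 and Tubb2b at 34307245 to 34315143 of chromosome 13 (GRCm39).

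Tuba1c and Tubb5 were higher in liver. Tuba1c was at 84.3, 57.1, 103 and 62.8 CPM in vehicle livers 1 to 4 and 34.01, 45.1, 32.3 and 30.9 CPM in vehicle kidneys 1 to 4, with a log2 fold change of 1.11 (SE 0.21, adjusted p = 0.000859). Tubb5 was at 90.1, 104, 85.7 and 75.7 CPM in vehicle livers and 40.2, 65.7, 42.0 and 40.9 CPM in vehicle kidneys, with a log2 fold change of 0.91 (SE 0.18, adjusted p = 0.00152). For both genes all livers were above all kidneys. Flot1, the opposite-strand partner of Tubb5, was at 24.8 to 39.1 CPM in vehicle livers and 31.05 to 52.2 CPM in vehicle kidneys, and these ranges overlapped too.

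Tuba1a and Tuba1b were lower in liver. Tuba1a was at 7.34, 5.87, 6.24 and 6.04 CPM in vehicle livers 1 to 4 and 9.61, 11.3, 12.8 and 10.2 CPM in vehicle kidneys 1 to 4, with a log2 fold change of -0.78 (SE 0.18, adjusted p = 0.00396). Tuba1b was at 29.9, 32.8, 32.2 and 34.6 CPM in vehicle livers and, as given above, 39.5 to 73.7 CPM in vehicle kidneys, with a log2 fold change of -0.60 (SE 0.20, adjusted p = 0.0277). The ranges did not overlap for either gene. The Tuba1b call was lost in the edgeR fit without vehicle replicate 1 (adjusted p = 0.0560) or vehicle replicate 3 (adjusted p = 0.0611). In tissue comparisons, leaving out a replicate removed both its liver and its kidney library.

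Tubb4b and Tubb6 did not pass the test in vehicle mice. Tubb4b, with the highest mean per kilobase in both organs and a range overlapping that of Tubb2a in liver, differed by -0.29 on the log2 scale (SE 0.18, adjusted p = 0.190), with 107 to 169 CPM in vehicle livers and 147 to 190 CPM in vehicle kidneys. Tubb6 differed by 0.01 (SE 0.31, adjusted p = 0.981), and its vehicle livers, at 4.99 to 14.8 CPM, spread more widely than its vehicle kidneys at 7.75 to 12.4 CPM. The interval of Tubb6, -0.59 to 0.61, leaves room for a change of either sign.

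The 7c mice, other animals with the same organs, gave tissue values of the same direction for 7 of the 8 genes. The vehicle value of Tubb6, 0.01, had no settled sign, since it turned negative with RLE size factors, DESeq2, limma-voom, no filter or the replicate block. Here 7 of the 8 passed, 3 higher and 4 lower in liver, against 30.9% and 34.8% of the 17117 genes tested, 65.7% in all. Ranges did not overlap for 3 members higher and 2 lower in liver, against 22.9% and 25% of genes. The log2 fold changes were 2.69 (SE 0.22) for Tubb2a, 1.20 (SE 0.14) for Tuba1c, 0.77 (SE 0.10) for Tubb5, -0.73 (SE 0.14) for Tuba1b, -0.98 (SE 0.16) for Tuba1a and -2.55 (SE 0.40) for Tubb2b, with adjusted p values from 3.66e-08 to 0.000219 in the edgeR fit. In 7c livers Tubb2a spanned 91.7 to 288 CPM with a median of 169 CPM, and in 7c kidneys 23.4 to 31.2 CPM with a median of 26.7 CPM. Tubb2b spanned 0.556 to 3.57 CPM with a median of 0.839 CPM in 7c livers, all below the 5.68 to 11.2 CPM of 7c kidneys, whose median was 8.29 CPM. Tubb4b was at the edge of the threshold, at -0.28 (SE 0.12, adjusted p = 0.0491), and lost the call without any of 7c replicates 2 to 6, with adjusted p values of 0.0587 to 0.248. Tubb6 was at 0.19 (SE 0.19, adjusted p = 0.400).

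**Figure D5:**
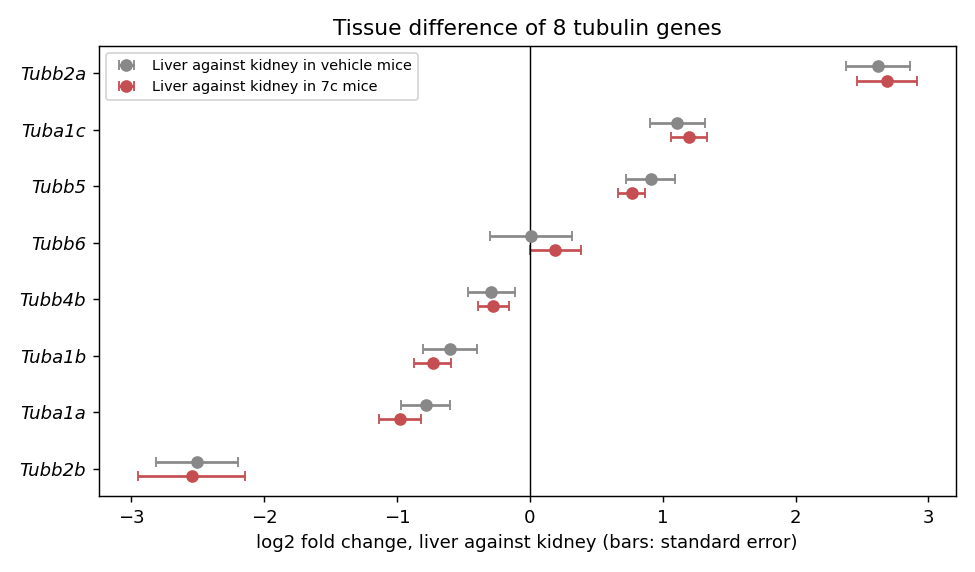
Log2 fold change of liver against kidney (horizontal axis) for 8 tubulin genes in vehicle mice and in 7c mice, with bars of 1 standard error. Tubb2a lies at 2.62 and 2.69, Tubb2b at -2.51 and -2.55, and the other genes between -0.98 and 1.20.

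Correlations between the members were computed over the libraries of each tissue, as a description only, since how other pairs of genes correlate in the same libraries was not measured and the values cannot be read as particular to tubulins. Over the 10 kidneys, Pearson correlations of log2(CPM + 0.5) were positive for all 28 pairs of the 8 genes, with a median r of 0.71. The permutation p values given for single pairs are two-sided, from 100000 resamples, with 56 pairs adjusted together over both tissues. Tubb2a and Tuba1c gave r = 0.91 and rho = 0.95 (permutation p = 0.00059 and 0.00018, adjusted p = 0.0158 for r), r = 0.97 without the 2 kidneys farthest from the median of Tubb2a, and r = 0.85 over the 6 7c kidneys alone. Tuba1b and Tuba1c gave r = 0.91 (permutation p = 0.0016, adjusted p = 0.0179) and rho = 0.82 (permutation p = 0.00594), with r = 0.95 without 2 kidneys and 0.86 in 7c kidneys alone. These 2 genes share sequence, and vehicle replicate 2 was high for several members at once. Vehicle kidney 2 and 7c kidney 5 also had the highest kidney tubule marker sums, 49011 and 55852 CPM, and the lowest TMM factors of the kidneys, 1.13 and 1.16, and the part of this in the correlations was not tested. Without these 2 kidneys, a choice made after seeing the data, all 28 pairs were still positive over 8 kidneys, with a median r of 0.68. Without the 2 kidneys farthest from the median of the first gene of a pair, 27 of the 28 pairs were positive, from -0.12 for Tubb6 with Tuba1a, which had been at 0.33, to 0.97, with a median of 0.62. Over the 10 livers, given as a description, 25 of the 28 correlations were positive with a median r of 0.33, and 17 of the 28 without the 2 farthest livers, with a median of 0.11, and the highest was that of Tubb4b with Tuba1c (r = 0.92, rho = 0.84).

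For Tubb4a, correlations were computed on the same scale. In liver they use the values by which the gene was chosen, over vehicle and 7c livers together, so a gene that differed between these groups can have a high r through that difference alone, and nothing further is read from them. Over the 10 livers its r with the 8 relatives lay between -0.16 (Tubb2b) and 0.30 (Tuba1b), and over the 10 kidneys between 0.38 (Tubb5) and 0.73 (Tubb6). The genes with the highest r among 15011 liver genes were Cenpm, a centromere protein (r = 0.93), Cand2, a regulator of ubiquitin ligases (r = 0.90), and Pcdhb14, a protocadherin (r = 0.89), with 8 to 128, 0 to 48 and 2 to 24 counts per liver. In kidney, among 17748 genes, they were Rps3a2 (r = 0.90), the heat shock protein gene Hspa4 (r = 0.88) and the purinergic receptor gene P2rx1 (r = 0.88). These are descriptions over 10 libraries each, picked as the highest of many, and no gene was among the top 3 in both tissues.

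The rest of the tubulin pathway was read from 4 lists of genes, other tubulins, folding and turnover factors, modifying enzymes, and microtubule-associated proteins and motors. With 7c in kidney, no gene of any list was called by the edgeR test and none had an unadjusted p under 0.05, against 0% and 2.61% of all genes. The numbers tested were 6 other tubulins, 8 chaperonin subunits, 6 prefoldin subunits, 6 folding cofactors, 2 factors of tubulin mRNA autoregulation, 15 modifying enzymes and 27 microtubule-associated proteins and motors. The lists' median log2 fold changes in kidney lay between -0.09 for modifying enzymes and 0.11 for prefoldin.

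None of the genes of lowest unadjusted p in each list passed the test. Map7, which binds along microtubules and recruits kinesin, was at 125 ± 13.6 CPM in vehicle kidneys and 105 ± 14.2 CPM in 7c kidneys (log2 fold change -0.27, SE 0.13), and Clasp1, which stabilises microtubule plus ends, at 20.3 ± 1.36 and 17.3 ± 1.91 CPM (-0.24, SE 0.12). Ttll7 and Ttll5, polyglutamylases of tubulin tails, gave -0.51 (SE 0.32) and -0.18 (SE 0.14). Tbce, a folding cofactor for alpha-tubulin, gave -0.13 (SE 0.12) and Cct2, a chaperonin subunit, 0.09 (SE 0.10). Tubg2, a gamma-tubulin of the nucleating complex, gave 0.65 (SE 0.45) at under 1 CPM on average in both groups, and Tuba4a 0.10 (SE 0.15). The adjusted p was 0.997 for each of these 8 genes.

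With 7c in liver, described only, no list gene was past the threshold and 1 had an unadjusted p under 0.05 in the edgeR fit, against 0.00666% and 3.76% of all genes. That gene was Tuba8, an alpha-tubulin at 0.161 ± 0.276 CPM in vehicle livers (SD, n = 4) and 0.980 ± 1.25 CPM in 7c livers (SD, n = 6), named after its values were seen. Its SD in 7c livers was larger than its mean, so its level was uneven between these livers. The 7c livers include replicate 6, whose skeletal muscle markers summed to 791 CPM, and the part of this library in the Tuba8 value was not tested.

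Between the organs of vehicle mice, the genes of the lists are to be read against the 27.7% of all genes called lower and the 25.7% called higher in liver. Of 27 microtubule-associated proteins and motors, 14 were called lower and 2 higher in liver, with a median log2 fold change of -0.87 against -0.06 over all genes. Of 15 modifying enzymes, 4 were lower and none higher, with a median of -0.44, and of 6 prefoldin subunits 2 were lower and none higher, shares of lower calls that were near that of all genes in these mice. Of 8 chaperonin subunits 2 were higher and none lower, of 6 cofactors 2 were higher and 2 lower, and of 6 other tubulins 3 were higher and none lower, among them Tuba4a (0.60, SE 0.19, adjusted p = 0.0200 in the edgeR fit). Of 2 factors of tubulin mRNA autoregulation, 1 was lower and none higher. In 7c mice, against 34.8% of genes called lower and 30.9% higher, 16 of 27 associated proteins and motors were lower and 3 higher, 7 of 14 modifying enzymes lower and 2 higher, and 4 of 6 prefoldin subunits lower and none higher. There 2 of 8 chaperonin subunits were higher and none lower, 2 of 6 cofactors were higher and 2 lower, and 4 of 6 other tubulins were higher and 1 lower. The 2 factors of tubulin mRNA autoregulation were called lower in liver in 7c mice. In vehicle mice Map7 was lower in liver (-1.72, SE 0.14, adjusted p = 1.87e-06) and Tbce higher (1.05, SE 0.14, adjusted p = 7.12e-05). The largest difference of all list genes, noticed after the values were seen, was that of Mapt, which encodes tau, an axonal microtubule protein. It was at 5.96 CPM in vehicle livers and 158 CPM in vehicle kidneys (-4.73, SE 0.22, adjusted p = 1.79e-08).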

How the data were processed

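The deposited values were raw counts per gene, made by the authors from stranded mRNA libraries, and the submitters' processing notes name STAR 2.7.11b, featureCounts 2.0.6 and GRCm39. The annotation release, strand setting and treatment of multi-mapping reads are not given in the sources used here. Symbols, positions, exon lengths and transcripts came from GENCODE vM39. Groups were taken from the sample labels, which number the animals as biological replicates, and all 20 columns were mapped. Genes were tested where 50% or more of the libraries compared had 10 counts or more. The test was the quasi-likelihood F-test of edgeR 4.0.16 (R 4.3.3, TMM) on treatment or tissue alone, at a Benjamini-Hochberg adjusted p under 0.05. Approximate 95% intervals came from the SE. CPM used TMM factors over all libraries. DESeq2 1.42.0, limma 3.58.1 (voom) and other settings were alternatives. The fits were tested on simulated data. The members and gene lists were chosen with earlier results of these data known. Genes named are the members, up to 2 genes per list with the lowest unadjusted p in kidney, those within 100 kb of Tubb4a, the 3 most correlated with it per tissue, and markers. Depth limits Tubb4a, Tubb3 and other genes with few counts, and floors cover counting error only, whereas the intervals include the spread between animals.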

Additional observations from a re-analysis of the deposited data

Results flagged for a closer look

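Each member was checked in each group for a library far from the others, its gap to the nearest library being set against the range of the group. Of 37 groups of values, 4 had such a library, where chance gives about 1 in 20 for continuous values. Vehicle liver 2 was the single vehicle liver with Tubb4a reads, at 0.146 CPM against 0 in the others, so that it stands apart by construction in the values that chose the gene. Vehicle kidney 2 was high in Tubb5, at 65.7 CPM, and in Tuba1b, at 73.7 CPM. The liver of 7c replicate 1 was high in Tuba1a, at 9.27 CPM, where the other 5 7c livers had 5.08 to 6.41 CPM, and it also had the highest Tubb2a, Tubb2b, Tubb4b and Tuba1c levels of the 7c livers.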

How the results depend on the processing

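In kidney no tubulin was called with 7c in any setting run. The number of all genes called there, 0, was 18 with DESeq2, 2 with limma-voom, 3 without a filter, 14 with the likelihood ratio test, 18 with all 20 libraries in 1 fit, and 0 to 3 when a replicate was left out (3 without 7c replicate 5). In liver the 1 gene called became 6 with DESeq2, 4 without a filter, 7 with the likelihood ratio test, 4 with all libraries in 1 fit, and 0 to 2 when a replicate was left out (0 without vehicle replicate 4). The deviations from group means of same-numbered liver and kidney libraries correlated at over 0.1 in 7 of 10 pairs, each of which also correlated best with its own number, and at -0.00401, 0.0485 and -0.00481 in the other 3. The main tissue tests did not take the number as a pairing, although the livers and kidneys came from the same mice and most pairs matched by number. Those tests treated the libraries of the organs as independent. With the replicate number as a block the number of genes called was 0 in kidney and 0 in liver, and no number of tubulins called changed, at 6 in vehicle mice and 7 in 7c mice between tissues. Between tissues in vehicle mice, the Tubb6 difference changed sign, to -0.059 with RLE size factors, -0.058 with DESeq2, -0.092 with limma-voom, -0.028 without a filter and -0.062 with the replicate block. It ranged from -0.27 to 0.29 when the liver and kidney libraries of a replicate were left out. RLE size factors moved the median of all genes in that contrast from -0.06 to -0.13, and the 6 tubulins called stayed 6 in number. Leaving out a replicate moved kidney values of Tubb6 between -0.050 and 0.18, of Tubb2b between -0.16 and 0.035 and of Tubb4a between -0.45 and 0.15. In liver it moved Tubb2b between -0.56 and 0.19, Tubb6 between 0.01 and 0.50, Tubb2a between -0.02 and 0.42 and Tuba1c between 0.18 and 0.50. The Tubb4b tissue call in 7c mice, at an adjusted p of 0.0491 in the edgeR fit, was lost without a filter (0.0962) and with all libraries in 1 fit (0.102). It was also lost without the liver and kidney libraries of 7c replicate 2, 3, 4, 5 or 6 (0.0587 to 0.248). With the longest transcript as length, Tubb2a held 34.3% of the beta-tubulins in vehicle liver in place of 40.1%, Tuba1a and Tubb6 changed places in 7c liver, Tuba1b and Tuba1c in vehicle kidney, and Tuba1b and Tubb5 in 7c kidney. The cause of these shifts was not tested.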
